A study of Mus musculus with 74 samples.

Results

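The genes described here are 7 markers of naive pluripotency in mouse embryonic stem (ES) cells: Zfp42 (also called Rex1), Tbx3, Nr0b1, Nr5a2, Gbx2, Fbxo15 and Pecam1. They were taken by name, with earlier results of these data known. Each of the 7 is listed once among the 37620 genes of the RNA-seq tables. Their values were read in all 35 libraries, which fall into 12 groups.

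Naive pluripotency is the state of ES cells that self-renew under the cytokine LIF, which acts through Stat3. A network of transcription factors that includes Nanog, Esrrb and the Klf factors maintains this state, and its genes are shut down when LIF is withdrawn and the cells pass to a formative state marked by Fgf5 and Otx2 on their way to differentiation. Among the 7 genes, Zfp42 encodes a zinc-finger protein related to YY1 and is the marker most often used to report the naive state. Tbx3 is a T-box factor and Gbx2 a homeobox factor, both known to act downstream of LIF. Nr0b1 (Dax1) and Nr5a2 (Lrh1) are nuclear receptors. Fbxo15 encodes an F-box protein that is abundant in ES cells, and Pecam1 an adhesion molecule of the cell surface that is also made by endothelial cells.

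The study asked how Nanog, alone or together with Otx2, acts on self-renewal with and without LIF. All cells were grown in FCS. Nanog SunTag cells are E14Tg2a ES cells with a CRISPR activator, a dCas9 with GCN4 epitopes and an scFv antibody fused to VP64, which doxycycline (Dox) switches on and a gRNA brings to the endogenous Nanog promoter. Nanog/Otx2 SunTag cells were made from them by adding a gRNA against Otx2. Each SunTag line consists of 1 clone from each of a pair of parental clones, C1 and C2, and libraries are named by clone and replicate. The clones of the Nanog/Otx2 line, which the labels call C1ON3 and C2ON3, are written C1 and C2 below. C1-1a and C1-1b of Nanog SunTag cells in −LIF +Dox share clone and replicate number in their titles. SunTag cells were grown for 3 days with LIF (10 ng/mL) or without it, and with Dox (1 µg/mL) or without it. There were 3, 2, 3 and 3 libraries of Nanog SunTag cells in +LIF −Dox, +LIF +Dox, −LIF −Dox and −LIF +Dox, and 3, 4, 4 and 4 libraries of Nanog/Otx2 SunTag cells in the same conditions. Nanog-null 44iN cells carry a Nanog transgene that Dox induces, and were profiled in LIF under Dox, 24 h after Dox was removed, and in long-term (LT) culture lacking Dox under G418 selection, with 2 libraries each. Wild-type Tg2a cells in LIF gave 3 libraries.

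The gRNAs decide which gene Dox induces, and their target sites are shown for that reason. Each matched a single site of mm9 exactly. The PAM, the motif that Cas9 needs beside its target, is in capitals.
Nanog gRNA target: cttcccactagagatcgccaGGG
Otx2 gRNA target: aatgtagagcgtgcatttggAGG
The Nanog site lies at chr6:122657269-122657288 on the plus strand, 219 to 238 bases upstream of the nearest annotated transcript start and outside all transcripts. The Otx2 site lies at chr14:49282649-49282668 on the minus strand, 102 to 121 bases upstream of the nearest transcript start and inside an intron of longer Otx2 transcripts. None of the 7 genes lies on either chromosome.

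The libraries held 6107512 to 92244655 estimated counts (median 29298745). Levels are given below as normalised counts, which are the estimated counts divided by a size factor for each library, with no correction for gene length, so levels are compared between groups and not between genes. Log2 fold changes are from edgeR's quasi-likelihood test, and a gene was called when its Benjamini-Hochberg adjusted p-value over all genes tested was under 0.05. The ES cell genes Pou5f1 and Sox2 were detected in every library, with 6786 to 47215 and 3953 to 23712 normalised counts. Nanog, the targeted gene, was higher with Dox in every Dox library than in any matched library without it, in both SunTag lines and with and without LIF. In bulk RNA, fewer cells expressing a gene and less RNA of that gene per cell cannot be told apart.

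Without LIF and Dox, all 7 genes fell. In Nanog SunTag cells the level left, as a percentage of the mean in +LIF −Dox, was 2.58% for Tbx3, 5.09% for Fbxo15, 6.11% for Zfp42, 8.52% for Gbx2, 8.64% for Nr0b1, 12.8% for Nr5a2 and 22.9% for Pecam1. All 7 were called lower, against 41.5% of the 15624 genes tested called in either direction and 21.3% called lower. With both gRNAs, all 7 were again called lower, against 49.8% of 15609 genes called and 25.2% called lower, and the level left ranged from 4.37% for Tbx3 to 27.7% for Pecam1. In both lines every −LIF −Dox library lay below every +LIF −Dox library, for each of the 7 genes. Tbx3 therefore lost most and Pecam1 least of its level in each line. Leaving out any single library changed none of these 14 calls. Here and below, overlap of libraries was looked at for the 7 genes only, and no share over all genes was taken.

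**Figure D1:**
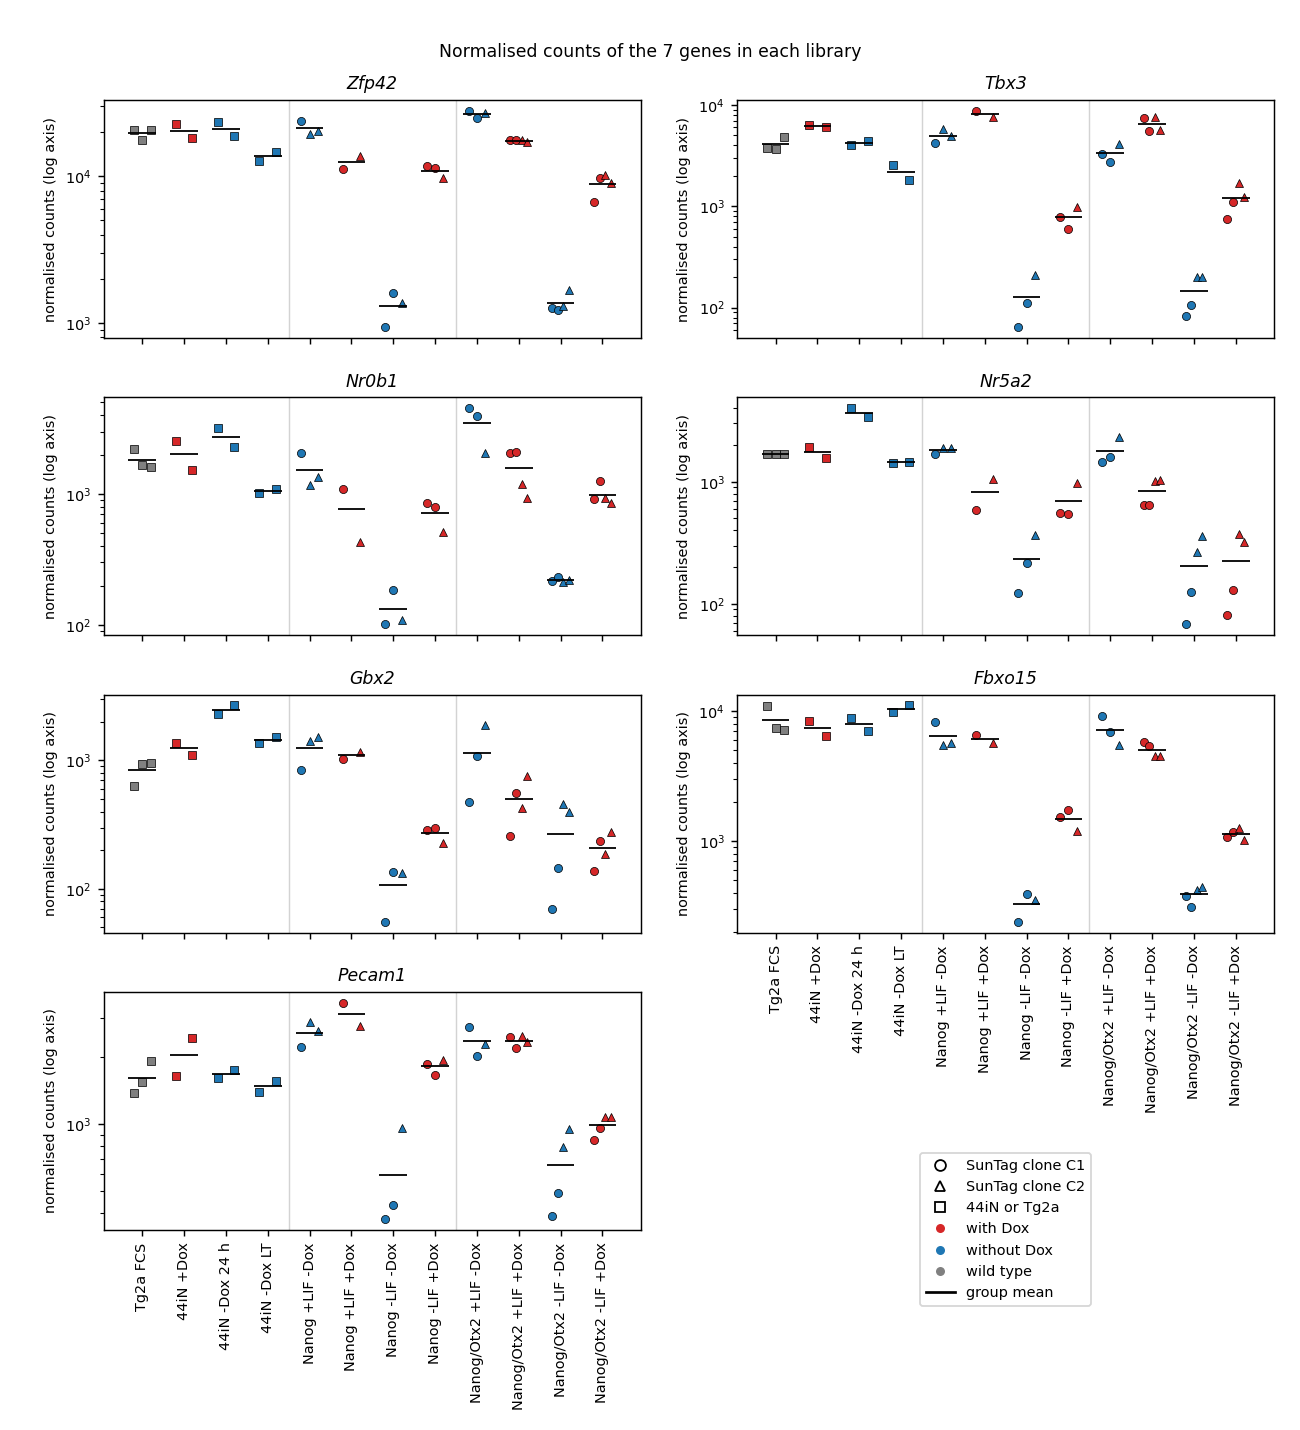
Normalised counts of the 7 genes (log scale, 1 panel per gene) in each of the 35 libraries, arranged by the 12 groups; points are single libraries. In both SunTag lines the points of −LIF −Dox sit lowest for Zfp42, Tbx3, Nr0b1 and Fbxo15, and 44iN cells 24 h after Dox removal sit highest for Nr5a2 and Gbx2.

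Zfp42 (ENSMUSG00000051176, chr8:44380422-44392363 of mm9) had 23743, 19448 and 20455 normalised counts in the Nanog SunTag libraries C1-1, C2-1 and C2-2 of +LIF −Dox. Without LIF it had 935, 1594 and 1360 in C1-1, C1-2 and C2-1, and with Dox in place of LIF 11752, 11377 and 9733 in C1-1a, C1-1b and C2-2. The −LIF +Dox libraries thus lay between the other groups, with no overlap on either side. Dox raised Zfp42 in the absence of LIF by 3.11 on the log2 scale (SE 0.21, adjusted p = 3.4e-05, edgeR's quasi-likelihood test, Benjamini-Hochberg adjusted), to 51.6% of the level with LIF. None of the SunTag libraries lacked a gRNA, so Dox and the activator were not tested apart from the induced genes. In the presence of LIF, Dox libraries held 11274 and 13862 normalised counts, both below the 3 libraries without Dox. That difference of −0.77 (SE 0.22) was not called by edgeR (adjusted p = 0.144) and was called by DESeq2 (−0.76, adjusted p = 0.0375).

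The groups stood in the same order in Nanog/Otx2 SunTag cells. Zfp42 had 27969, 25132 and 27136 normalised counts in +LIF −Dox and 1272, 1222, 1310 and 1685 in −LIF −Dox. With Dox and no LIF it had 6711 in C1-1, 9740 in C1-2, 10236 in C2-1 and 9005 in C2-2, which is 33.4% of the mean with LIF. Dox raised it without LIF by 2.74 (SE 0.13, adjusted p = 1.1e-08, edgeR). With LIF, the 4 Dox libraries were close together, at 17768, 17653, 17612 and 17189, all below the 3 without Dox, and Zfp42 fell by 0.59 on the log2 scale (SE 0.13, adjusted p = 0.00483, edgeR). Zfp42 was therefore lower with Dox in LIF and higher with Dox without LIF in both lines. By edgeR the fall in LIF was called in Nanog/Otx2 SunTag cells alone. The difference between these 2 effects was called by edgeR in each line. It was 3.88 (SE 0.30, adjusted p = 5.1e-04) in Nanog and 3.33 (SE 0.18, adjusted p = 8.74e-08) in Nanog/Otx2 SunTag cells.

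Tbx3 (ENSMUSG00000018604, chr5:120120678-120134733) had the widest range of the 7 genes, with a highest group mean 63.6 times the lowest. Nanog SunTag libraries held 4169, 5828 and 4920 normalised counts in +LIF −Dox and 64.3, 111 and 209 in −LIF −Dox, a log2 fold change of −5.31 (SE 0.39, adjusted p = 3.46e-06, edgeR). With Dox and no LIF they held 776, 592 and 974, above all 3 libraries without Dox and below all with LIF. Dox raised Tbx3 by 2.65 (SE 0.35, adjusted p = 0.00141, edgeR), which left it at 15.7% of its level with LIF and still called lower, by −2.66 (SE 0.34, adjusted p = 3.03e-04, edgeR). In LIF the Dox libraries held 8717 and 7593, both above the 3 without Dox. That difference of 0.70 (SE 0.35) was not called (adjusted p = 0.394, edgeR).

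In the line with both gRNAs, Tbx3 had 3287, 2707 and 4083 normalised counts in +LIF −Dox and 7431, 5493, 7589 and 5657 in +LIF +Dox. The groups did not overlap, and Tbx3 rose with Dox by 0.99 (SE 0.30, adjusted p = 0.0263, edgeR). This call was lost when +LIF −Dox C1-1 (0.98, adjusted p = 0.0824) or C1-2 (0.86, adjusted p = 0.119), or +LIF +Dox C1-1 (0.91, adjusted p = 0.0595) or C2-1 (0.91, adjusted p = 0.0677), was left out. Without LIF, Tbx3 had 82.6, 106, 200 and 199 without Dox and 748, 1096, 1710 and 1245 with it. Dox raised it by 3.09 (SE 0.30, adjusted p = 1.2e-05, edgeR), to 35.7% of its level with LIF. Of the 7 genes, Tbx3 was the only one that edgeR called higher with Dox in LIF in either SunTag line.

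Of the nuclear receptors, Nr0b1 rose with Dox without LIF in both lines and Nr5a2 was called in Nanog SunTag cells. Nr0b1 (ENSMUSG00000025056, chrX:83437103-83441286) had 2043, 1167 and 1350 normalised counts in +LIF −Dox of Nanog SunTag cells, 101, 185 and 108 without LIF, and 859, 791 and 511 with Dox and no LIF. The Dox libraries lay above those without Dox, and Nr0b1 rose by 2.49 (SE 0.39, adjusted p = 0.00373, edgeR), to 47.4% of its level with LIF. In Nanog/Otx2 SunTag cells it had 4521, 3922 and 2046 in +LIF −Dox, 218, 234, 212 and 219 without LIF, and 921, 1255, 927 and 861 with Dox and no LIF. Again no library overlapped, and Dox raised it by 2.20 (SE 0.27, adjusted p = 7.29e-05, edgeR), to 28.3%.

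Nr5a2 (ENSMUSG00000026398, chr1:138740161-138857004) had 1687, 1894 and 1903 normalised counts in +LIF −Dox of Nanog SunTag cells, 122, 217 and 364 without LIF, and 553, 540 and 976 with Dox and no LIF. All libraries with Dox lay above those without, and Nr5a2 rose by 1.59 (SE 0.38, adjusted p = 0.0313, edgeR), to 37.7% of its level with LIF. The call was lost without −LIF −Dox C1-1 (1.30, adjusted p = 0.106) or C1-2 (1.56, adjusted p = 0.109), or −LIF +Dox C1-1a (1.73, adjusted p = 0.0662) or C2-2 (1.26, adjusted p = 0.0999). In cells with both gRNAs, Nr5a2 had 67.9, 124, 268 and 357 without LIF and 81.1, 131, 376 and 318 with Dox and no LIF. These groups overlapped, and the log2 fold change was 0.21 (SE 0.49, adjusted p = 0.817, edgeR). The levels of Nr5a2 in that line were thus 11.5% and 12.7% of the mean with LIF without and with Dox.

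With LIF, Dox libraries of both lines held less of both nuclear receptors. Nr0b1 had 1100 and 429 normalised counts in +LIF +Dox of Nanog SunTag cells, a log2 fold change of −1.02 (SE 0.42, adjusted p = 0.298, edgeR), and −1.22 (adjusted p = 0.0411) once the clone was added as a replicate block. It had 2060, 2092, 1187 and 933 in Nanog/Otx2 SunTag cells, a called fall of 1.16 on the log2 scale (SE 0.27, adjusted p = 0.00735), which was lost without +LIF −Dox C1-1 (−0.93, adjusted p = 0.0501). The groups did not overlap in the first line and did in the second, where 2046 in +LIF −Dox C2-1 lay within the Dox range. Nr5a2 had 582 and 1061 in Nanog and 646, 641, 1004 and 1041 in Nanog/Otx2 SunTag cells with LIF and Dox, in each line below all libraries with LIF alone. Its log2 fold changes were −1.16 (SE 0.42, adjusted p = 0.252) and −1.06 (SE 0.50, adjusted p = 0.141), and the second was called with the replicate block (−1.33, adjusted p = 0.00103).

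Gbx2 (ENSMUSG00000034486, chr1:91824537-91829865) was raised by Dox without LIF in Nanog SunTag cells, by less than the other 6 genes, and was not called in Nanog/Otx2 SunTag cells. In Nanog SunTag cells it had 835, 1421 and 1514 normalised counts in +LIF −Dox, 55.4, 134 and 132 without LIF, and 290, 300 and 228 with Dox and no LIF. Dox raised it without LIF by 1.39 (SE 0.32, adjusted p = 0.0265, edgeR), to 21.7% of its level with LIF. That call was lost without −LIF −Dox C1-1 (1.09, adjusted p = 0.0758), −LIF +Dox C1-1a (1.34, adjusted p = 0.113) or −LIF +Dox C1-1b (1.34, adjusted p = 0.0874). In cells with both gRNAs, the libraries of +LIF −Dox ranged from 479 in C1-1 over 1080 in C1-2 to 1898 in C2-1. Without LIF it had 69.5, 145, 459 and 396 without Dox and 138, 236, 186 and 276 with it, overlapping groups with a log2 fold change of −0.30 (SE 0.53, adjusted p = 0.751, edgeR). The clone means went in opposite directions there, with Dox at 1.74 times the level without it in C1 and at 0.54 times in C2. The C1 libraries overlapped (69.5 and 145 without Dox, 138 and 236 with it), and those of C2 did not. With LIF, Dox libraries held 257, 559, 429 and 763, a log2 fold change of −1.15 (SE 0.56, adjusted p = 0.152) that was called with the replicate block (−1.28, adjusted p = 0.00587).

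Fbxo15 (ENSMUSG00000034391, chr18:85104550-85150768) fell to 240, 392 and 355 normalised counts without LIF in Nanog SunTag cells, from 8223, 5444 and 5723 with it. With Dox and no LIF it had 1519, 1721 and 1198, above all libraries without Dox, a rise of 2.20 (SE 0.23, adjusted p = 3.57e-04, edgeR) to 22.9% of the level with LIF. In Nanog/Otx2 SunTag cells it had 376, 310, 422 and 447 without LIF and 1084, 1177, 1267 and 1017 with Dox, again with no overlap, a rise of 1.58 (SE 0.15, adjusted p = 1.09e-05, edgeR) to 15.9%. With LIF, the log2 fold change with Dox was −0.10 (SE 0.25, adjusted p = 0.885) in Nanog and −0.50 (SE 0.16, adjusted p = 0.0326, edgeR) in Nanog/Otx2 SunTag cells. The latter call was lost without +LIF −Dox C1-1 (−0.28, adjusted p = 0.22) or C1-2 (−0.52, adjusted p = 0.0742), or +LIF +Dox C2-1 (−0.45, adjusted p = 0.0887) or C2-2 (−0.46, adjusted p = 0.0789), and when no filter on low counts was applied (−0.48, adjusted p = 0.0538).

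Pecam1 (ENSMUSG00000020717, chr11:106515531-106611942) kept the largest share of its level without LIF of the 7 genes. In Nanog SunTag cells it had 2222, 2871 and 2633 normalised counts with LIF, 375, 433 and 961 without it, and 1864, 1666 and 1940 with Dox and no LIF. The rise with Dox was 1.66 (SE 0.30, adjusted p = 0.00873, edgeR) and brought Pecam1 to 70.8% of its level with LIF. The remaining gap to cells with LIF alone, −0.49 (SE 0.29), was not called (adjusted p = 0.231). Under both gRNAs, it had 388, 490, 788 and 950 without LIF and 852, 964, 1085 and 1074 with Dox and no LIF, overlapping groups. Their difference of 0.65 (SE 0.21) was called at the margin (adjusted p = 0.0489, edgeR), and the call was lost when 14 of the 15 libraries were left out in turn, with log2 fold changes of 0.46 to 0.75. It was also lost with DESeq2 size factors (0.63, adjusted p = 0.0517), without a filter on low counts (0.64, adjusted p = 0.0627) and with filterByExpr (0.64, adjusted p = 0.0543). The summed level of 10 other endothelial markers lay between 393 and 1145 normalised counts over the 35 libraries. Of these, Tek (142 to 663), Cd34 (82.1 to 432), Esam (8.96 to 166) and Kdr (1.67 to 160) were detected in every library, Cdh5, Tie1, Cldn5, Erg and Sox18 were at 0 in at least 1 library, with at most 101 in any, and Emcn had at most 0.58.

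**Figure D2:**
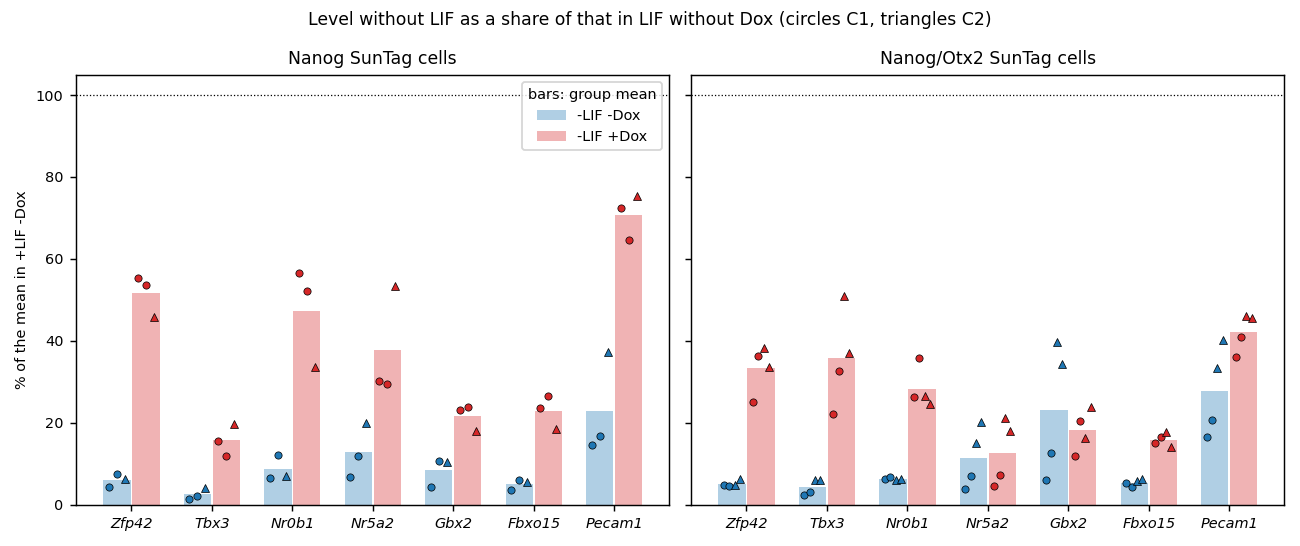
Level of each gene without LIF as a percentage of its mean in +LIF −Dox of the same line (linear axis, dotted line at that mean); bars are group means and points single libraries of C1 (circles) and C2 (triangles), without Dox in blue and with Dox in red. In Nanog SunTag cells the Dox libraries sit above those without Dox for all 7 genes, and in Nanog/Otx2 SunTag cells the points overlap for Nr5a2, Gbx2 and Pecam1.

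Counted over the 7 genes, Dox without LIF raised all 7 in Nanog SunTag cells, where 5.14% of 15624 genes were called and 3.6% were called higher. It raised 5 in Nanog/Otx2 SunTag cells, all but Nr5a2 and Gbx2, where 17.3% of 15609 genes were called and 11.2% called higher. With LIF, Dox called none of the 7 in Nanog SunTag cells, where 88 genes (0.563%) were called. The induced Nanog was not called there either (1.74, SE 0.39, adjusted p = 0.0793, edgeR). Unadjusted, 2227 of the 15624 genes had a p-value under 0.05, and DESeq2 called Zfp42. With both gRNAs, 4 of the 7 were called with LIF, Tbx3 higher and Zfp42, Nr0b1 and Fbxo15 lower, against 22.9% of all genes.

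The effect of Dox without LIF was larger than its effect with LIF for Zfp42, Nr0b1, Nr5a2 and Fbxo15 in Nanog SunTag cells, by a test of the interaction of LIF and Dox that called 1.93% of all genes, 1.32% in this direction. The differences were 3.88, 3.51 (SE 0.57, adjusted p = 0.0127), 2.75 (SE 0.57, adjusted p = 0.034) and 2.30 (SE 0.34, adjusted p = 0.00898, edgeR) on the log2 scale. That of Tbx3 was 1.95 (SE 0.50, adjusted p = 0.0758), and was called under the replicate block (1.88, adjusted p = 0.0246), by DESeq2 (1.92, adjusted p = 0.00653), without a filter (1.98, adjusted p = 0.0208) and without −LIF −Dox C2-1 (2.50, adjusted p = 0.0147). The call of Nr5a2 was lost when any of 9 of the 11 libraries was left out, with values of 2.38 to 3.30, and with C1-1a and C1-1b summed (2.88, adjusted p = 0.0615). Without −LIF −Dox C2-1 the difference of Pecam1, 1.39 (adjusted p = 0.148), was 1.93 (adjusted p = 0.00877), and without +LIF −Dox C1-1 that of Gbx2, 1.60 (adjusted p = 0.114), was 1.82 (adjusted p = 0.0419). DESeq2 also called Gbx2 (1.57, adjusted p = 0.0265), and so called 6 of the 7 genes. In Nanog/Otx2 SunTag cells the interaction was called for Zfp42, Tbx3 (2.10, SE 0.41, adjusted p = 0.00463), Nr0b1 (3.36, SE 0.38, adjusted p = 1.33e-04) and Fbxo15 (2.08, SE 0.22, adjusted p = 7.06e-05), against 9.7% of all genes called and 5.15% in this direction. Nr5a2, at 1.27 (SE 0.70, adjusted p = 0.318), was called there with the replicate block (1.57, adjusted p = 0.00682).

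**Figure D3:**
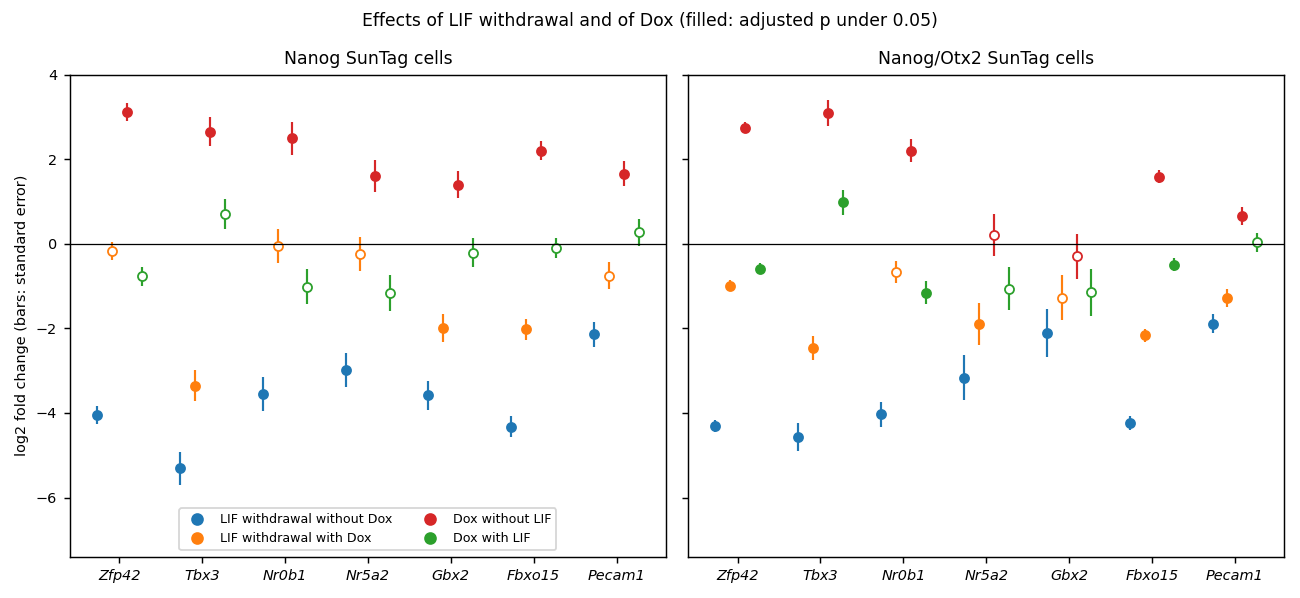
Log2 fold changes of the 7 genes with their standard errors for LIF withdrawal without and with Dox and for Dox without and with LIF, 1 panel per SunTag line (points are estimates of edgeR, bars are 1 SE to each side, filled points were called). Dox with LIF lies between −1.16 and 0.99 for every gene, LIF withdrawal without Dox lies between −5.31 for Tbx3 and −1.89 for Pecam1, and LIF withdrawal with Dox between −3.36 for Tbx3 and −0.05 for Nr0b1.

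Cells with Dox in place of LIF did not have the levels of cells with LIF alone. In Nanog SunTag cells 6 of the 7 genes were called lower, all but Pecam1, against 28.1% of all genes called and 13.1% called lower. The gap was −0.95 (SE 0.19, adjusted p = 0.00448, edgeR) for Zfp42, −1.07 (SE 0.36, adjusted p = 0.0457) for Nr0b1 and −1.39 (SE 0.37, adjusted p = 0.0167) for Nr5a2. It was −2.19 (SE 0.31, adjusted p = 6.14e-04) for Gbx2 and −2.12 (SE 0.23, adjusted p = 1.17e-04) for Fbxo15. The call of Nr0b1 was lost when any of 8 of the 11 libraries was left out (−1.23 to −0.75) and with filterByExpr (−1.02, adjusted p = 0.0542), and that of Nr5a2 without −LIF +Dox C1-1a (−1.23, adjusted p = 0.0697) or C1-1b (−1.22, adjusted p = 0.0718). With C1-1a and C1-1b summed neither was called (Nr0b1 −1.12, adjusted p = 0.0924, and Nr5a2 −1.22, adjusted p = 0.071). In the line with both gRNAs, all 7 were called lower, against 45.3% of all genes called and 21.7% called lower, with gaps from −1.24 for Pecam1 to −2.95 for Nr5a2. The libraries did not overlap in any of these comparisons, and how many of all genes behave so was not counted.

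When Dox was present in both conditions, LIF withdrawal called 3 of the 7 genes lower in Nanog SunTag cells, Tbx3 at −3.36 (SE 0.37, adjusted p = 1.52e-04), Fbxo15 at −2.02 (SE 0.24, adjusted p = 2.59e-04) and Gbx2 at −1.98 (SE 0.33, adjusted p = 0.00152, edgeR), against 32.6% of all genes called and 15.5% called lower. Zfp42 (−0.18, SE 0.21), Nr0b1 (−0.05, SE 0.40) and Nr5a2 (−0.23, SE 0.40) were not called, and their libraries with and without LIF overlapped. Pecam1, at −0.76 (SE 0.32, adjusted p = 0.0868), was called without −LIF −Dox C2-1 (−0.75, adjusted p = 0.00993). In the line with both gRNAs, 5 were called lower, against 36.5% of all genes called and 17.9% called lower: Tbx3 (−2.46, SE 0.28), Fbxo15 (−2.16, SE 0.15), Nr5a2 (−1.89, SE 0.49), Pecam1 (−1.27, SE 0.21) and Zfp42 (−0.99, SE 0.12), the largest adjusted p being 0.00732. Nr0b1 (−0.67, SE 0.26, adjusted p = 0.0524) and Gbx2 (−1.28, SE 0.53, adjusted p = 0.0733) were called there with the replicate block (−0.61, adjusted p = 0.0109, and −1.22, adjusted p = 0.00418). Nr0b1 was also called by DESeq2 (−0.67, adjusted p = 0.0271) and when 1 of 5 libraries was left out, among them +LIF +Dox C2-2 (−0.85, adjusted p = 0.0144), and Gbx2 without −LIF −Dox C1-1 (−1.28, adjusted p = 0.0338).

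Between the lines, −LIF +Dox cells with both gRNAs held less Nr5a2 (−1.67, SE 0.48, adjusted p = 0.00841) and less Pecam1 (−0.94, SE 0.26, adjusted p = 0.00627, edgeR over all 26 SunTag libraries) than those with the Nanog gRNA alone. These were the calls among the 7, against 41% of the 16210 genes tested called and 20.9% called lower. The 4 Pecam1 values of 852 to 1085 lay below the 3 of 1666 to 1940, and those of Nr5a2, 81.1 to 376, lay below 540 to 976. Without Nanog −LIF +Dox C2-2 the difference of Nr5a2 was −1.33 (adjusted p = 0.0536). Zfp42 (−0.36, SE 0.15, adjusted p = 0.0642) and Nr0b1 (0.39, SE 0.32, adjusted p = 0.346) were called with the replicate block, at −0.38 (adjusted p = 0.0443) and 0.53 (adjusted p = 0.037). With the clone taken within each line as the block, Zfp42 (−0.45, adjusted p = 0.0275) and Fbxo15 (−0.48, adjusted p = 0.0406) were called and Nr0b1 was not (0.45, adjusted p = 0.0997). Fbxo15 (−0.45, SE 0.19, adjusted p = 0.0578) was called when 1 of 5 libraries was left out (−0.57 to −0.45), and Zfp42 without Nanog −LIF −Dox C1-1 (−0.36, adjusted p = 0.0374) or Nanog/Otx2 −LIF +Dox C2-1 (−0.44, adjusted p = 0.0395). The gRNAs are in different cell lines, whose libraries also carry separate series of names, so that gRNA, line and series cannot be told apart.

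The test of whether the effect of Dox without LIF differed between the lines called none of the 7 genes, and 5 genes (0.0308%) of 16210. At an unadjusted p-value under 0.05 it gave 923 genes, and DESeq2 called 41 genes and none of the 7. The differences, both gRNAs minus the Nanog gRNA, were −1.75 (SE 0.73) for Gbx2, −1.44 (SE 0.70) for Nr5a2, −1.06 (SE 0.37) for Pecam1, −0.67 (SE 0.27) for Fbxo15, −0.42 (SE 0.22) for Zfp42, −0.34 (SE 0.47) for Nr0b1 and 0.38 (SE 0.47) for Tbx3, with adjusted p-values of 0.663 to 0.937. That Nr5a2 and Gbx2 rose with Dox in one line and were not called in the other is therefore not shown to be a difference between the lines.

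C1 and C2 differed for some of the genes in the same direction throughout. In all 8 SunTag groups the Nr5a2 libraries of C2 lay above those of C1, with a C2 to C1 ratio of 1.13 to 3.28 (median 1.80). Nr0b1 went the other way, with C1 above C2 in 5 groups, overlap in 3 and a ratio of 0.39 to 0.955 (median 0.617). Zfp42 had a median ratio of 1.05, with C2 above in 2 groups and C1 in 3. For Tbx3 C2 lay above in 6 groups (median ratio 1.39), for Pecam1 in 5 (1.14) and for Gbx2 in 4 (1.42), and for Fbxo15 C1 lay above in 5 (0.844). The groups hold 1 or 2 libraries of a clone, so that many could hardly overlap, and the counts are a description with no test. Within each clone Dox without LIF went up for each gene in Nanog SunTag cells, from 1.73 times for Gbx2 in C2 to 9.15 times for Zfp42 in C1. The fold was larger in C1 than in C2 for all 7 genes, for example 4.37 against 2.02 for Pecam1 and 7.79 against 4.66 for Tbx3. In C2 every fold is 1 library over 1 library, the same for all 7 genes, so they are not separate observations. Nanog itself held 2234 to 8484 normalised counts in the −LIF −Dox libraries of that line, and its level with Dox was 7.11 times that without in C1 and 20.2 times in C2.

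**Figure D4:**
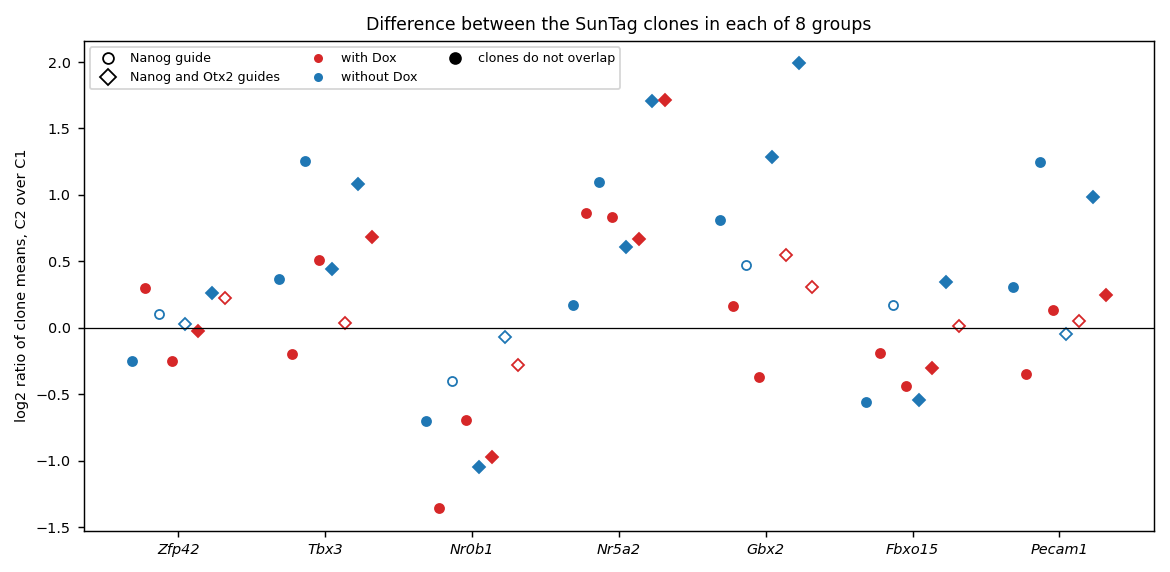
Log2 ratio of the mean normalised count in C2 to that in C1 for each gene in the 8 SunTag groups (each point is 1 group of 2 to 4 libraries, circles for the Nanog gRNA and diamonds for both gRNAs, filled where the clones do not overlap, which groups with 1 library of a clone can hardly fail). Nr5a2 sits above 0 and Nr0b1 below 0 in all 8 groups.

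Nanog-null 44iN cells show the 7 genes when Nanog is lost in the presence of LIF. From Dox to 24 h after its removal Nr5a2 went from 1912 and 1560 normalised counts to 3998 and 3357, and Gbx2 from 1373 and 1109 to 2304 and 2683. Both genes were thus higher in each library without Dox than in each with it, at 212% and 201% of the mean with Dox. Tbx3 lay the other way, with 6279 and 6074 with Dox and 4053 and 4434 without it, 68.7% of its level with Dox. The groups overlapped for the other 4 genes, which stood at 103% (Zfp42), 107% (Fbxo15), 134% (Nr0b1) and 82.3% (Pecam1). Groups of 2 libraries often separate by chance, and the share of all genes that separated here was not counted.

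None of these differences was called by edgeR without a block, with 2 libraries against 2. Nanog itself was not called either (4.56 for Dox against 24 h, SE 0.30, adjusted p = 0.0902, edgeR). Its mean was 15880 normalised counts with Dox and 722 at 24 h. The log2 fold change of Dox against 24 h was −0.99 (SE 0.21, adjusted p = 0.357) for Nr5a2, −0.91 (SE 0.22, adjusted p = 0.418) for Gbx2 and 0.64 for Tbx3. Of the 14376 genes tested 0% were called, 1023 had an unadjusted p-value under 0.05, and DESeq2 called 141 genes and none of the 7. The number of genes called was 61 without 24 h replicate 1 and 3413 without +Dox replicate 1. Without +Dox replicate 1, where the lone library is assumed to vary as the pair, Nr5a2 (−1.13, adjusted p = 5.1e-04), Gbx2 (−1.07, adjusted p = 0.00178) and Nr0b1 (−0.73, adjusted p = 0.0314) were called, and without +Dox replicate 2 Nr5a2 (−0.89, adjusted p = 0.0169). In the joint model of Dox in 44iN cells and in Nanog SunTag cells with LIF (9 libraries), 0.307% of 15642 genes were called and none of the 7 was. At an unadjusted p-value under 0.05 that model gave 1295 genes. Its log2 fold change for Nr5a2 was −1.13 in SunTag cells (adjusted p = 0.148 over both cell types), and DESeq2 called Nr5a2 and Tbx3. Nr5a2 was also called without a filter (−1.15, adjusted p = 0.00218) and with the replicate block (−1.10, adjusted p = 0.0496).

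After long-term culture without Dox, Tbx3 was at 2579 and 1797 normalised counts, below the libraries with Dox and below the 3781, 3648 and 4770 of Tg2a cells. It fell against 44iN cells with Dox by 1.51 on the log2 scale (SE 0.22, adjusted p = 0.0135, edgeR), the 1 call among the 7, against 7.7% of 15096 genes called and 4.11% called lower. Without LT replicate 1 or 2 it was not called (−1.80, adjusted p = 0.107, and −1.28, adjusted p = 0.149). Against Tg2a cells Tbx3 (−0.97, SE 0.20, adjusted p = 0.0254) and Nr0b1 (−0.87, SE 0.18, adjusted p = 0.0264) were called lower, against 8.61% of 14937 genes called and 5.26% called lower. Both calls were lost without LT replicate 1, LT replicate 2 or Tg2a replicate 2, with adjusted p-values of 0.0697 to 0.246.

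Nr0b1 had 1025 and 1086 normalised counts in LT cells, below 2546 and 1521 with Dox and 2188, 1674 and 1611 in Tg2a cells. Zfp42, with 12811 and 14636, likewise lay below both, and its differences of −0.58 (SE 0.21, adjusted p = 0.135) and −0.60 (SE 0.16, adjusted p = 0.053) were not called by edgeR. Gbx2 and Fbxo15 stood apart from these, at 116% and 141% of the level with Dox and 171% and 123% of that in Tg2a cells, without a call by edgeR. Nr5a2, at 83% and 85.6%, and Pecam1, at 72.5% and 91.5%, were not called by it either. Other settings did call some of these. The replicate block used here joins libraries by number alone, and the labels do not say that equal numbers shared a culture. Against Tg2a cells Zfp42 was called by DESeq2 (adjusted p = 0.00663), without a filter (adjusted p = 0.0277) and with the replicate block (adjusted p = 0.00569), Gbx2 likewise (adjusted p = 0.0234, 0.0464 and 5.98e-04), and Nr5a2 with the block (−0.32, adjusted p = 0.0365). Against cells with Dox, Nr0b1 was called by DESeq2 (−0.96, adjusted p = 0.0261), without a filter (adjusted p = 0.00393) and with the block (adjusted p = 0.0268). Against cells with Dox, leaving out +Dox replicate 2 gave calls for Zfp42 (−0.70, adjusted p = 0.0271) and Nr0b1 (−1.24, adjusted p = 0.00426), and leaving out +Dox replicate 1 for Fbxo15 (0.73, adjusted p = 0.0357) and Pecam1 (−0.69, adjusted p = 0.0252). Against Tg2a cells, leaving out Tg2a replicate 3 gave calls for Zfp42 (−0.57, adjusted p = 0.0283) and Gbx2 (0.78, adjusted p = 0.0391). Markers of extraembryonic endoderm also differed between these groups, with 8 of 9 tested called higher in LT cells than with Dox, against 3.58% of all genes, and a summed level of 19468 to 30818 normalised counts in LT, 3097 to 4099 in 44iN cells with Dox or 24 h after it, and 14973 to 23173 in Tg2a cells, and their part in the results was not tested.

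**Figure D5:**
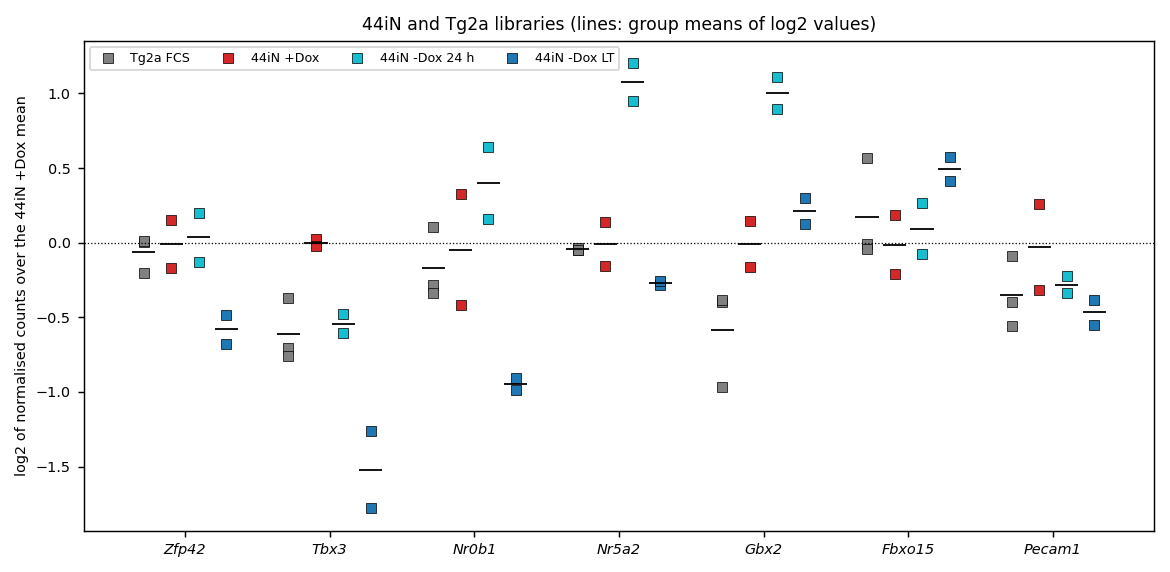
Log2 of normalised counts over the mean of 44iN cells with Dox, for the 7 genes in single libraries of wild-type Tg2a cells and of 44iN cells under Dox, 24 h after Dox was removed and in LT culture (squares are libraries, black lines are means of the log2 values). Nr5a2 and Gbx2 peak 24 h after Dox removal, Tbx3 is lowest in LT cells, and Fbxo15 is not lower there than with Dox.

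Ordered by mean level over the 12 groups, the 7 genes shared their lower end. For each of them except Nr5a2 the lowest mean was that of Nanog SunTag cells in −LIF −Dox, and for Nr5a2 that of Nanog/Otx2 SunTag cells in −LIF −Dox. For Zfp42 the highest mean was 26746 ± 1458 normalised counts (SD, n = 3) in Nanog/Otx2 SunTag cells with LIF alone, with no overlap to the next group. Nanog SunTag cells with LIF alone, both 44iN groups in short-term culture and Tg2a cells followed at 19669 to 21215, each overlapping its neighbour. Both −LIF +Dox groups, at 10954 ± 1074 (SD, n = 3) and 8923 ± 1559 (SD, n = 4), overlapped each other and lay above both −LIF −Dox groups, at 1372 ± 212 (SD, n = 4) and 1296 ± 334 (SD, n = 3).

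The upper end differed from gene to gene. Tbx3 was highest in both groups of SunTag cells with LIF and Dox, at 8155 ± 795 (SD, n = 2) and 6543 ± 1121 (SD, n = 4), followed by 44iN cells with Dox at 6177 ± 145 (SD, n = 2). Nr0b1 was highest in Nanog/Otx2 SunTag cells with LIF alone, at 3497 ± 1291 (SD, n = 3), and the 6 highest groups formed a chain of overlapping neighbours. Nr5a2, at 3678 ± 453 (SD, n = 2), and Gbx2, at 2493 ± 268 (SD, n = 2), were highest in 44iN cells 24 h after Dox removal, with no overlap to the next group. Fbxo15 was highest in LT 44iN cells, at 10455 ± 816 (SD, n = 2), and its 8 groups with LIF formed a chain of overlapping neighbours above the 4 without LIF. Pecam1 was highest in Nanog SunTag cells with LIF and Dox, at 3145 ± 532 (SD, n = 2), with the same kind of chain over its 9 highest groups, the −LIF +Dox group of Nanog SunTag cells among them.

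The genes most like each member over the 35 libraries were sought by Pearson's r of log2(normalised count + 1) among the 11291 genes whose mean normalised count reached 100. These values describe libraries that share cell lines, clones and the contrast of LIF, and are given without a test. Closest to Zfp42 were Manba (0.963), H2-M5 (0.96) and 2410137M14Rik (0.958), and closest to Tbx3 were Gm7325 (0.977), Klf4 (0.97) and Cd9 (0.955). Fbxo15 was closest to Jam2 (0.976), Lrrc2 (0.971) and Morc1 (0.968), Pecam1 to Mylpf (0.959), Tgm1 (0.933) and Tfap2c (0.921), and Nr0b1 to Zfp42 (0.931), Gfod1 (0.913) and Gpa33 (0.907). Nr5a2 was closest to Dapp1 (0.944), Epha4 (0.942) and Xrcc5 (0.929). Gbx2 was closest to Gm15055 (0.928), Dapp1 (0.916) and Cdk5rap1 (0.914), so that Dapp1 stands near both by this measure. In SunTag libraries alone Dapp1 was not among the 3 closest genes of either. Among the 21 pairs of members r ran from 0.678 for Nr0b1 with Gbx2 over a median of 0.83 to 0.931 for Zfp42 with Nr0b1.

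Other and general pluripotency genes, a list of 24 besides the 7, were all tested. The list holds Nanog itself, which Dox induces, so that the counts below leave it out and are over 23 genes, while medians are over 24. Without LIF and Dox, 19 fell and none rose in Nanog SunTag cells, against 41.5% of all genes called and 21.3% called lower, with a median log2 fold change of −2.14 (all genes −0.05) and the lowest value for Socs3, a feedback inhibitor of LIF signalling (−5.93, SE 0.34, adjusted p = 8.07e-07, edgeR). Dox without LIF raised 13 and lowered none, against 3.6% of all genes called higher, with a median of 1.12 (all genes 0.0018) and the highest value for Prdm14, a regulator of naive pluripotency (3.28, SE 0.37, adjusted p = 5.55e-04, edgeR). In Nanog/Otx2 SunTag cells 20 fell and Utf1 rose (0.56, SE 0.11) without LIF, against 25.2% of all genes called lower and 24.6% called higher, and Dox without LIF raised 14 and lowered none, against 11.2% called higher, with a median of 0.72 (all genes −0.0065). With LIF, Dox called none of the 23 in Nanog SunTag cells, and 1 higher and 4 lower in Nanog/Otx2 SunTag cells, a share close to the 22.9% of all genes called, the lowest being Klf2 (−1.27, SE 0.19, adjusted p = 4.39e-04, edgeR). In LT cells 5 were called lower than with Dox, against 4.11% of all genes, and 5 lower than in Tg2a cells, against 5.26%, and none higher.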

How the data were processed

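The deposited RNA-seq tables hold 35 libraries, and all their columns belonged to the samples used. Stranded reads were aligned by the authors to mm9 with STAR, and the deposited estimated counts per gene came from RSEM, rounded to whole numbers. The deposited signal, called normalised counts here, is the estimated counts divided by the authors' DESeq2 size factors. Tool versions beyond CASAVA 1.8 are not given in the sources used here. The 3 Tg2a libraries in 2i, ChIP-seq and ATAC-seq were not analysed here.

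Groups were taken from the sample titles. Genes that reached 10 normalised counts in each library of some condition were tested on the estimated counts with edgeR's quasi-likelihood test (version 4.0.16, TMM) and Benjamini-Hochberg adjustment over all genes tested. All 7 genes passed this filter in every comparison. Each SunTag line had a model of LIF, Dox and the LIF by Dox interaction, the 26 SunTag libraries a joint model for differences between lines, and models of their own were used for 44iN with Dox and 24 h, for these with LT, for LT with Tg2a, and for 44iN with the SunTag libraries in LIF. SE is the absolute log2 fold change divided by the square root of F. Comparisons of 1 line share their control libraries.

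Libraries of 1 SunTag clone come from the same cell clone, which pairs them. Deviations from group means correlated at a mean r of 0.219 between libraries of 1 clone and −0.211 between clones in Nanog SunTag cells. The values in Nanog/Otx2 SunTag cells were 0.309 and −0.31. Deviations within a group cancel out, so the values between clones partly follow from those within. The block was the clone, with the replicate number for Nanog/Otx2 cells (mean r 0.407 within, −0.136 between), and in the joint model of the lines the clone of origin, C1 with C1ON3 and C2 with C2ON3. Titles and table columns give different replicate numbers for Nanog +LIF +Dox C1-1, Nanog −LIF +Dox C1-1b and C2-2, and Nanog/Otx2 +LIF −Dox C2-1, and the titles were followed. Apart from clones, nothing in the labels says that replicates came from separate cultures, and p-values then measure the spread between these libraries, which may be technical. No 2 libraries differed by less than sampling noise (chi-square per degree of freedom 9.15 to 200 over 37 pairs). Standard errors cover this spread and counting error only.

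The alternatives were DESeq2 (version 1.42.0, without independent filtering), its size factors in edgeR, no filter, filterByExpr, the replicate block, each library left out in turn (a library left alone in its group is assumed to vary like the others), fits of the Nanog SunTag libraries with LIF alone and without LIF alone, 1 level for all libraries without Dox in the model of both lines and, chosen after seeing the data, C1-1a and C1-1b summed and 3 other forms of the block (the numbers of the columns, the clone alone, the clone within each line). The 7 members were all named, with the 3 genes most like each and the extreme called genes of each list (endothelial, extraembryonic endoderm, trophoblast, neural, primitive streak and fibroblast markers, formative genes, nuclear receptors, T-box genes and the relatives Yy1, Yy2 and Gbx1). The 10 endothelial markers, Pou5f1 and Sox2 were named after their values were seen. The members and lists were chosen with earlier results of these data known. gRNA spacers were matched exactly to mm9, the Nanog spacer from its second base.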

Additional observations from a re-analysis of the deposited data

Results flagged for a closer look

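In the test of whether Dox acted differently without and with LIF, 4 genes differed in each SunTag line by edgeR, and by DESeq2 6 in Nanog and 4 in Nanog/Otx2 SunTag cells. In Nanog SunTag cells the log2 difference was 3.88 for Zfp42 (adjusted p = 5.1e-04, edgeR's quasi-likelihood test, Benjamini-Hochberg adjusted), 3.51 for Nr0b1 (adjusted p = 0.0127), 2.75 for Nr5a2 (adjusted p = 0.034) and 2.30 for Fbxo15 (adjusted p = 0.00898). In cells with both gRNAs, it was 3.33 for Zfp42 (adjusted p = 8.74e-08), 2.10 for Tbx3 (adjusted p = 0.00463), 3.36 for Nr0b1 (adjusted p = 1.33e-04) and 2.08 for Fbxo15 (adjusted p = 7.06e-05).

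Nr0b1 stood apart in 1 library of Nanog/Otx2 SunTag cells with Dox and no LIF, C1-2, at 1255 normalised counts against 861 to 927 in the other 3. This gap passed Dixon's critical value in 1 of 21 groups examined, and chance flags about 1 in 20 groups.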

How the results depend on the processing

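The count of the 7 genes called stayed within 1.5 times its value in 100 of the 115 comparisons with an alternative that leaves no library out. For Dox with LIF in Nanog SunTag cells the count of 0 became 1 with DESeq2 and 1 with the replicate block, and between the lines in −LIF +Dox 2 became 4 with the block, by clone of origin or by clone within line. For LT against Dox 1 became 2 with DESeq2, without a filter and with the block, for LT against Tg2a 2 became 4, 4 and 5, and for the joint model 0 became 2, 1 and 1. For 44iN cells with Dox against 24 h, 0 became 1 without a filter (Nr5a2) and 3 with the replicate number as a block, Tbx3 (0.64, adjusted p = 0.0165), Nr5a2 (−0.99, adjusted p = 1.02e-05) and Gbx2 (−0.91, adjusted p = 9.5e-05). In 44iN and Tg2a cells libraries share a number only, with 2 pairs. The block takes residual degrees of freedom from fits that had 2 (44iN at 24 h) and 3 (LT against Tg2a) without it. Its adjusted p-values there, however small, rest on very few libraries and are not strong evidence. In 44iN cells with Dox and at 24 h, deviations from group means correlated at 0.647 within a number. With 2 libraries per group, the value between numbers is fixed as its mirror image and is no added evidence. For LT and Tg2a cells the mean r was 0.127 within a number and −0.0633 between numbers, so little pairing was seen there.

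With 1 library left out the counts of the 7 genes called ranged, in Nanog SunTag cells, from 7 to 7 for LIF withdrawal, 3 to 4 with Dox present, 5 to 7 for Dox without LIF, 0 to 0 with LIF, 3 to 6 for the interaction and 4 to 6 for Dox in place of LIF. With both gRNAs, these were 7 to 7, 5 to 6, 4 to 5, 1 to 4, 4 to 4 and 7 to 7. They were 2 to 4 between the lines, 0 to 0 for their difference in the effect of Dox, 0 to 3 for 44iN cells at 24 h, 0 to 3 for LT against Dox, 0 to 4 for LT against Tg2a and 0 to 0 for the joint model. For Dox with LIF in Nanog/Otx2 SunTag cells the 4 calls became 1 without +LIF −Dox C1-1, and 2 without +LIF −Dox C1-2 or +LIF +Dox C2-1.

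Of the values of single genes, 2 turned sign under another setting, neither called: Nr0b1 for LIF withdrawal with Dox in Nanog SunTag cells (0.0395 without a filter, adjusted p = 0.992) and Pecam1 for Dox with LIF in Nanog/Otx2 SunTag cells (−0.0638 with the block, −0.048 with column numbers, −0.0448 by clone alone, adjusted p = 0.815 to 0.871). With 1 library left out 16 values of 11 results turned sign, again none called. The ranges were, for LIF withdrawal with Dox in Nanog SunTag cells, −0.312 to 0.0267 for Zfp42, −0.543 to 0.776 for Nr0b1 and −0.595 to 0.315 for Nr5a2. They were −0.217 to 0.143 for Fbxo15 (Dox with LIF, Nanog SunTag), −0.131 to 0.626 for Nr5a2 and −0.64 to 0.109 for Gbx2 (Dox without LIF, Nanog/Otx2), −0.0657 to 0.159 for Pecam1 (Dox with LIF, Nanog/Otx2) and −0.178 to 0.723 for Tbx3 (difference between the lines). For 44iN at 24 h they were −0.109 to 0.215 for Zfp42 and −0.21 to 0.16 for Fbxo15, and −0.214 to 0.138 for Fbxo15 in the joint model. With C1-1a and C1-1b summed, Nr5a2 (1.74, adjusted p = 0.0548) and Gbx2 (1.34, adjusted p = 0.0971) were not called for Dox without LIF. The replicate block changed no call of a SunTag comparison beyond those given. Each call it gave in Nanog/Otx2 SunTag cells was also given by the block with column numbers and by the block of the clone alone (adjusted p = 0.00108 to 0.0239). Among the genes most like each member, 0 or 1 of 3 were kept for Zfp42, Nr0b1, Gbx2, Fbxo15 and Pecam1, with Spearman's rho as with SunTag libraries alone. For Tbx3 the closest by rho were all others, Lix1l, Serpinb1a and Itgb3. In SunTag libraries alone those of Nr5a2 were all others too, Txlnb, Sult6b1 and Exoc6b. The causes were not tested.

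Over all genes, DESeq2, then the block, gave 1509 and 1375 calls for Dox without LIF in Nanog SunTag cells (edgeR 803), 587 and 293 with LIF (88) and 877 and 709 for the interaction (302). They gave 41 and 8 for the difference between the lines (5), 141 and 1912 for 44iN at 24 h (0), 1958 and 2191 for LT against Dox (1162), 2294 and 4840 against Tg2a (1286) and 410 and 153 jointly (48). Without a filter 434 genes were called for 44iN at 24 h, 2551 for LT against Dox, 615 jointly and 151 for Dox with LIF in Nanog SunTag cells, where the 5 libraries with LIF alone gave 0. The 6 libraries without LIF alone gave 1951 for Dox without LIF. The block gave 5215, 6401 and 3407 for Dox without LIF, with LIF and the interaction in Nanog/Otx2 SunTag cells (2702, 3577 and 1514). With C1-1a and C1-1b summed, 404, 49, 110 and 2878 genes were called for Dox without LIF, with LIF, the interaction and Dox in place of LIF in Nanog SunTag cells. With 1 library left out these counts ranged, in Nanog SunTag cells, from 277 (−LIF −Dox C1-1 out) to 1617 (+LIF −Dox C1-1 out) for Dox without LIF, from 3 (+LIF +Dox C1-1) to 142 (+LIF −Dox C1-1) with LIF and from 81 (−LIF +Dox C1-1a) to 481 (+LIF −Dox C1-1) for the interaction. They were 0 (LT replicate 1) to 3361 (+Dox replicate 2) for LT against Dox and 19 (LT replicate 1) to 2618 (Tg2a replicate 3) for LT against Tg2a, so the shares of all genes given beside these results move with single libraries. The lowest estimated count of any of the 7 genes in a library was 68 (Gbx2).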

Other observations

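Formative genes went against the 7 naive markers. Without LIF and Dox 13 of 16 rose and 2 fell in Nanog SunTag cells, against 20.2% and 21.3% of all genes, with a median log2 fold change of 2.56 (all genes −0.05), led by Fgf5, the growth factor of the formative epiblast (9.43, SE 0.75, adjusted p = 5.08e-06, edgeR's quasi-likelihood test, Benjamini-Hochberg adjusted). Dox without LIF lowered 6 of them and raised none, against 1.54% of all genes called lower, most of all Sox3 (−2.58, SE 0.30, adjusted p = 6.73e-04). Under both gRNAs, where Pou3f1 counts as 2 features, 14 of 17 rose and 1 fell without LIF, against 24.6% and 25.2% of all genes. Dox without LIF lowered 4 there and raised 2, against 6.15% and 11.2% of all genes, the higher being Otx2, the gene targeted in that line (0.85, SE 0.13, adjusted p = 5.66e-04).

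Other members of the same gene families are given beside the share of all genes called. Of 21 nuclear receptors besides Nr0b1 and Nr5a2, 5 rose and 3 fell without LIF in Nanog SunTag cells, which is 38.1% against 41.5% of all genes called, from Rxrg (2.96, SE 0.49) to Esrrb, a core naive factor (−4.79, SE 0.21, adjusted p = 1.9e-07, edgeR), and Esrrb was the 1 raised by Dox without LIF (3.23, SE 0.20, adjusted p = 3.03e-05), 4.76% against 5.14%. In Nanog/Otx2 SunTag cells 9 of 23 rose and 4 fell (56.5% against 49.8%), and Dox without LIF raised 2 and lowered 2 (17.4% against 17.3%). Of 8 T-box genes besides Tbx3, 4 rose and none fell without LIF in Nanog SunTag cells (50% called against 41.5%), and Dox without LIF called none. With both gRNAs, 4 of 7 rose and 1 fell (71.4% against 49.8%), and Dox raised Eomes (0.80, SE 0.23, adjusted p = 0.0248). Of the relatives Yy1, Yy2 and Gbx1, 1 fell without LIF in each line, and none was called for Dox without LIF.

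Markers of other cell types are given with both lines, beside the 41.5% of all genes called without LIF in Nanog and 49.8% in Nanog/Otx2 SunTag cells. Without LIF and Dox 4 of 6 trophoblast markers rose in Nanog SunTag cells, led by the keratin Krt18 (2.54, SE 0.27, adjusted p = 3.29e-05, edgeR), and Tfap2c fell (−3.14). Of 8 tested extraembryonic endoderm markers 6 fell, and of 6 neural markers Nes rose (3.66, SE 0.38) and Tubb3 fell (−1.83). Among primitive streak and fibroblast markers 2 of 5 and 2 of 4 rose, and Kdr was the 1 of 6 endothelial markers called (−1.58). Endothelial and neural markers were thus called at 16.7% and 33.3%, below the share of all genes. Primitive streak and fibroblast markers were called at 40% and 50%, all of them higher, against 20.2% of all genes called higher. These lists are short, so that single genes move their shares. In Nanog/Otx2 SunTag cells 4 of 5 trophoblast markers rose and 1 fell, 2 of 9 endoderm markers fell and 1 rose, 2 of 6 neural markers rose and 1 fell, 2 of 3 streak markers rose and 1 fell, 3 of 4 fibroblast markers rose, and of 8 endothelial markers 3 fell and 1 rose. The summed levels given here are those of Nanog SunTag cells. Over −LIF −Dox libraries they were 2253 to 2405 normalised counts for trophoblast and 3833 to 4293 for extraembryonic endoderm markers. They were 1945 to 4324 for neural, 186 to 236 for primitive streak, 321 to 416 for fibroblast and 532 to 631 for endothelial markers. In +LIF −Dox these were 1489 to 2364, 4174 to 7947, 1331 to 3306, 32.5 to 46.9, 145 to 506 and 620 to 780. Their part in the levels of the 7 genes was not tested.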
